A study of Saccharomyces cerevisiae with 36 samples.

Results

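Karyopherins are the carriers that take proteins and RNAs through the nuclear pore, and the messages of 10 of them were followed through all 18 groups of a yeast microarray series. The 10 genes (MSN5, MTR10, KAP123, KAP95, SRP1, CRM1, CSE1, LOS1, KAP104 and PSE1) were chosen by name as carriers of nuclear import or export. Each was read from the 1 probe set annotated to it, and they are 10 of 5338 genes measured. RNA of Saccharomyces cerevisiae was put on 36 Affymetrix arrays, 2 for each of 3 strains, 2 conditions and 3 kinds of RNA. The strains were a deletion of MSN5 (msn5), a deletion of MTR10 (mtr10) and the wild type BY4742, a MATalpha laboratory strain with deletions in HIS3, LEU2, LYS2 and URA3. The labels name BY4742 only for the wild type, and do not say how many isolates of a deletion were used. Starved cells spent 30 min in medium without amino acids, and fed cells spent the same time in medium with them, after growth at 30 °C to an OD600 of about 0.35 and the splitting of each culture. All cultures, starved and fed, received cycloheximide at 100 µg/ml before harvest, which holds ribosomes on messages, and lysates were run on sucrose gradients of 10 to 50%. Polysome RNA came from the pooled fractions with several ribosomes on a message, non-polysome RNA from the pooled lighter fractions, and total RNA was measured beside them.

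A karyopherin binds its cargo, the lining of the pore and the small GTPase Ran, whose GTP-bound form is kept high in the nucleus. Importins release cargo when they meet Ran-GTP, and exportins need Ran-GTP to hold cargo. In budding yeast, Kap95 (importin beta) works with Srp1 (importin alpha) to import proteins with a classical signal. Kap123 and Pse1 import ribosomal proteins among other cargo, Kap104 imports messenger RNA-binding proteins such as Nab2, and Mtr10 imports the RNA-binding protein Npl3 and is needed for the return of tRNA from the cytoplasm to the nucleus. Among exportins, Crm1 carries proteins with a leucine-rich signal, Cse1 returns Srp1 to the cytoplasm, Los1 carries tRNA, and Msn5 carries phosphorylated regulators such as Mig1, Far1 and Crz1, and tRNA.

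Levels are the authors' log2 RMA values, which run from 3.42 to 14.61, and every difference is on that log2 scale with its standard error (SE). RMA gives all arrays one distribution, so a level is relative to the other messages of the same array, and polysome and non-polysome levels do not add up to an amount per cell. A difference was called at an adjusted p under 0.05 in limma's fit of all 36 arrays, with p-values adjusted over the 5338 genes. The labels call the 2 arrays of a group biological replicates. They correlated at 0.965 or above, and their small number limits the precision. Groups of 2 arrays often did not overlap: in total RNA, starved and fed arrays did not for 80.3% to 87.2% of all genes. For other comparisons that share was not counted, so a lack of overlap says little about a member. Of 110 called results on genes present in the strain, 71 kept their call whichever array of the compared groups was left out, and the arrays that decided the others are named beside them. The msn5 and mtr10 comparisons share the wild-type arrays, and changes of a polysome to non-polysome ratio reuse the arrays of both pools. In fed non-polysome RNA of msn5 and mtr10 the deleted gene was listed Present on both arrays of each strain, at 6.85 and 7.23 for MSN5 in msn5 and at 5.48 and 5.17 for MTR10 in mtr10. Of the called results, 34 need those arrays and cannot be given without them; the other 76 kept their call without them. Markers of MATa cells were also high in starved MATalpha cells. The 7 markers averaged 11.98 to 12.10 in starved wild-type total RNA, with 7 of 7 Present, and 7.80 to 8.03 in fed. They averaged 10.48 to 10.78 in starved and 7.82 in fed msn5, and 10.57 to 11.13 in starved and 10.01 to 10.16 in fed mtr10. In fed non-polysome RNA the 7 averaged 8.88 to 9.07 in msn5, 10.08 to 10.62 in mtr10 and 8.11 to 8.30 in wild-type. The 5 MATalpha markers were Present in all 18 groups, at 10.76 to 10.79 in starved and 12.06 to 12.11 in fed msn5 total RNA, 12.29 to 12.31 in starved and 12.87 to 12.94 in fed mtr10, and 12.66 in starved and 12.89 to 12.91 in fed wild-type. The part of these markers in the results below was not tested.

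The deleted genes were far below their wild-type level in every pool, but were not listed Absent on every array. MSN5 in starved polysome RNA read 4.49 and 3.96 in msn5, listed Absent on both arrays, against 11.99 and 11.91 in wild-type, a difference of at least 212-fold. It was at least 93.1-fold lower in fed polysome and at least 97.1-fold lower in starved non-polysome RNA, where in each case 1 of the 2 msn5 arrays listed it Present, and 15.4-fold lower in fed non-polysome RNA. MTR10 in starved polysome RNA read 3.90 and 3.93 in mtr10, against 10.75 and 10.48 in wild-type, at least 100.0-fold lower. It was 49.1-fold lower in mtr10 in fed non-polysome RNA. A bound of this kind sets the wild-type mean against the higher of 2 signals on each mutant array. These are that of the deleted gene itself and the lowest among probes listed Present.

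**Figure D1:**
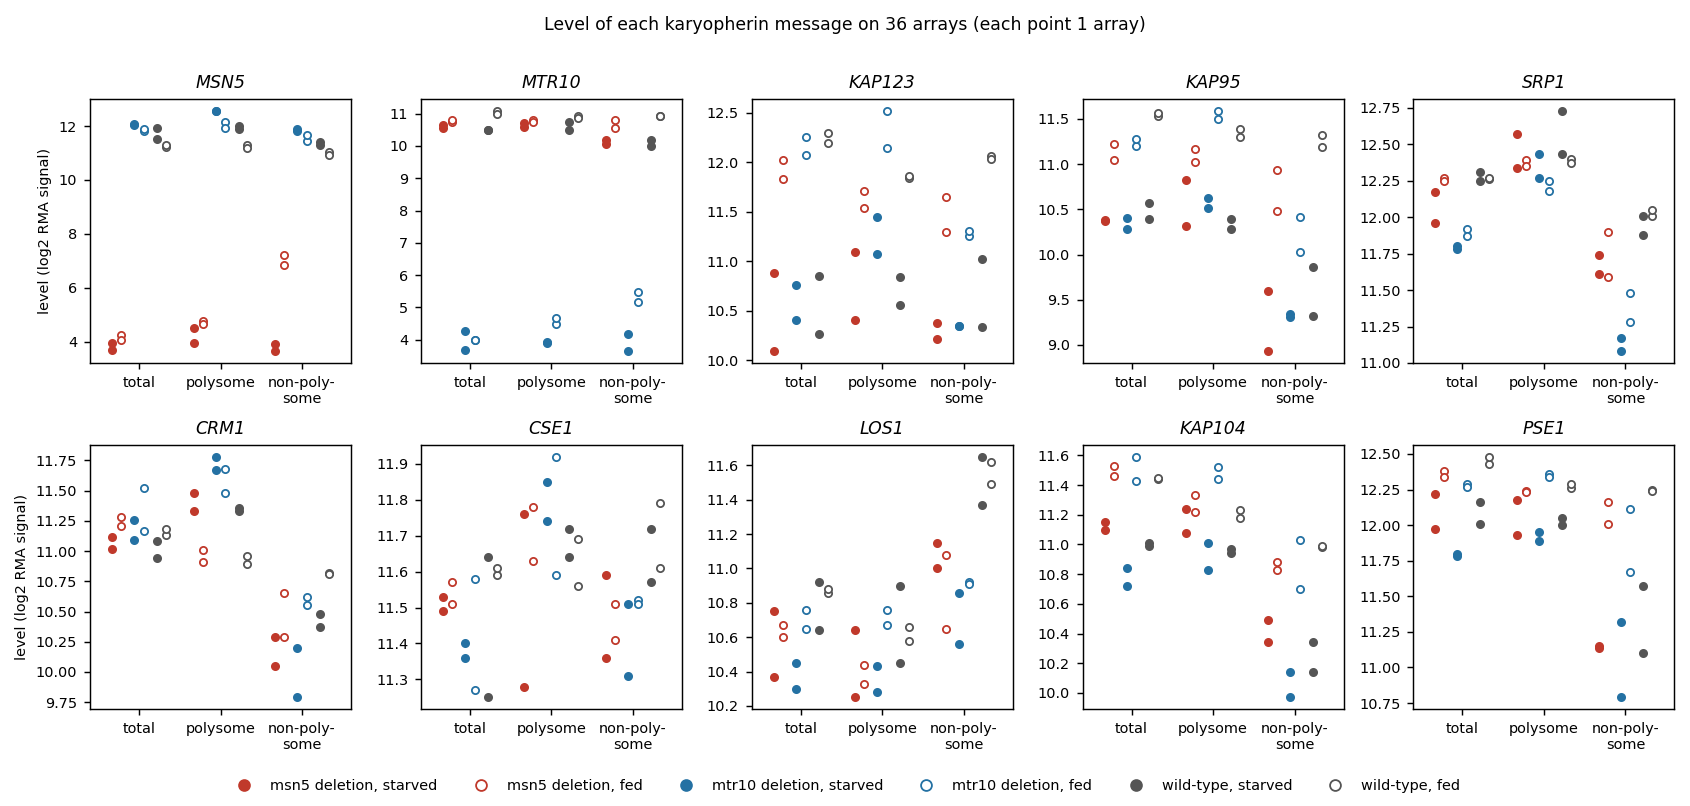
Level of each of the 10 karyopherin messages (log2 RMA signal) in total, polysome and non-polysome RNA; each point is 1 array, filled for starved and open for fed cells, coloured by strain. MSN5 in msn5 and MTR10 in mtr10 lie far below all other points, and the starved arrays of KAP123 in total RNA, at 10.09 to 10.88, lie below the fed arrays, at 11.83 to 12.30.

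The span of a message over the groups that carry its gene differed between members. KAP95 had the widest span of group means, 2.28, with its lowest mean, 9.27, in starved msn5 non-polysome RNA and its highest, 11.55, in fed wild-type total RNA. KAP123 spanned 2.04, with a mean of 10.29 in starved msn5 non-polysome RNA and 12.33 in fed mtr10 polysome RNA. CRM1 spanned 1.73, and both ends came from starved mtr10 cells, with 11.73 in polysome and 10.00 in non-polysome RNA. CSE1 spanned only 0.41, from 11.38 to 11.79, and 16 of its 17 pairs of neighbouring groups overlapped. MSN5 spanned 1.59 over 12 groups: its mean was 12.57 in starved mtr10 polysome RNA and 10.98 in fed wild-type non-polysome RNA, and in non-polysome RNA no 2 neighbours of its 4 groups overlapped. MTR10 spanned 0.96 over 12 groups. Its 6 fed groups lay above its 6 starved groups, and 6 of its 11 neighbouring pairs overlapped. SRP1 spanned 1.46, with its lowest mean, 11.12, in starved mtr10 non-polysome RNA. LOS1 spanned 1.20, and the 2 highest of its 18 groups were starved and fed wild-type non-polysome RNA. KAP104 spanned 1.45 and PSE1 spanned 1.39, each lowest in starved mtr10 non-polysome RNA, at 10.06 and 11.06. Neighbouring groups overlapped in 14 of 17 pairs for KAP123 and LOS1, 13 for KAP95, CRM1 and KAP104, 12 for SRP1 and 11 for PSE1. Spans and overlaps were worked out for the members alone. Whether any of them is unusual among all genes was therefore not tested.

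Amino acid starvation lowered the messages of several importins in total RNA, and the message of the exportin MSN5 was higher in starved wild-type cells. Of 28 comparisons of a member in a strain that carries it, 13 were called, 12 lower and 1 higher. These were 3 of 9 members in msn5, 4 of 9 in mtr10 and 6 of 10 in wild-type, beside 61%, 48.7% and 64.2% of all genes; 32.2%, 23.9% and 32.8% of all genes were called lower. The share of members called was no higher than that of all genes in any strain. Starved and fed arrays did not overlap for 84.4% of all genes in msn5, 80.3% in mtr10 and 87.2% in wild-type. Their median difference was -0.20 in msn5, -0.33 in mtr10 and -0.26 in wild-type, while the median of all genes was -0.03, 0.01 and -0.03. In bulk RNA, fewer cells with a message and less of it per cell cannot be told apart.

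KAP123, an importer of ribosomal proteins, fell most among the members. It read 10.88 and 10.09 in starved msn5 and 12.02 and 11.83 in fed msn5, a difference of -1.44 ± 0.25 (SE, n = 2 arrays a group; adjusted p = 4.76e-05). In mtr10 it read 10.76 and 10.41 starved and 12.25 and 12.07 fed, a difference of -1.57 ± 0.25 (adjusted p = 2.57e-05). In wild-type it read 10.26 and 10.85 starved and 12.19 and 12.30 fed, a difference of -1.69 ± 0.25 (adjusted p = 4.9e-06), or 3.23-fold. All 6 starved arrays lay below all 6 fed arrays. KAP95, importin beta, behaved the same way: it read 10.37 and 10.38 in starved and 11.05 and 11.22 in fed msn5, 10.40 and 10.28 in starved and 11.20 and 11.28 in fed mtr10, and 10.39 and 10.57 in starved and 11.53 and 11.57 in fed wild-type cells. The starved arrays again lay below the fed ones, with differences of -0.76, -0.90 and -1.07 (SE 0.19 each; adjusted p = 0.00175, 0.000547 and 4.63e-05 in msn5, mtr10 and wild-type).

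KAP104, the importer of Nab2, fell by less. It read 11.10 and 11.15 in starved and 11.46 and 11.53 in fed msn5, 10.84 and 10.72 in starved and 11.59 and 11.43 in fed mtr10, and 10.99 and 11.01 in starved and 11.44 and 11.45 in fed wild-type cells. Its groups did not overlap in any strain, and the differences were -0.37, -0.74 and -0.44 (SE 0.10 each; adjusted p = 0.00326, 3.57e-06 and 0.000571). PSE1, which shares ribosomal cargo with Kap123, was called in mtr10 (-0.49 ± 0.15, adjusted p = 0.0106) and in wild-type (-0.37 ± 0.15, adjusted p = 0.0364). In msn5 its difference was -0.27 (95% interval -0.58 to 0.05). PSE1 read 11.80 and 11.78 in starved and 12.29 and 12.27 in fed mtr10, and 12.01 and 12.16 in starved and 12.43 and 12.48 in fed wild-type cells, with starved below fed on all these arrays. The PSE1 call in wild-type was lost without fed replicate 1 (-0.40, adjusted p = 0.0838), fed replicate 2 (-0.35, adjusted p = 0.125) or starved replicate 1 (-0.30, adjusted p = 0.188). That in mtr10 was lost without fed replicate 1 (-0.48, adjusted p = 0.0534) or starved replicate 2 (-0.47, adjusted p = 0.054).

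MTR10, the importer of Npl3, read 10.49 and 10.50 in starved wild-type cells and averaged 11.04 ± 0.07 (SD, n = 2) in fed ones, a fall of 1.47-fold (-0.55 ± 0.16, adjusted p = 0.00485). In msn5 it read 10.65 and 10.55 starved and 10.75 and 10.81 fed; the groups did not overlap but the difference, -0.18, was not called (95% interval -0.52 to 0.15). MSN5 ran the other way. It read 11.93 and 11.53 in starved and 11.23 and 11.28 in fed wild-type cells, a rise of 1.38-fold (0.47 ± 0.15, adjusted p = 0.0106). In mtr10 it read 12.07 and 12.03 starved and 11.83 and 11.91 fed, with a difference of 0.18 that was not called (95% interval -0.14 to 0.50). The MSN5 call in wild-type was lost without fed replicate 1 (0.44, adjusted p = 0.0557) or starved replicate 1 (0.27, adjusted p = 0.203). The MAS5 signals that the authors also deposited gave 34 usable columns, with 1 for each wild-type total group, so that every MAS5 value for wild-type total RNA rests on a single array a group. In median-centred MAS5 signals over all columns MTR10 was not called (-0.78, adjusted p = 0.0738), nor was MSN5 (0.35, adjusted p = 0.679). Without the strain that lacks the gene, MTR10 was called in these signals (-0.78, adjusted p = 0.00104) and MSN5 was not (0.35, adjusted p = 0.0563).

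For SRP1 (importin alpha), CRM1, CSE1 and LOS1 no strain gave a called difference in total RNA. Their differences lay between -0.33, for LOS1 in mtr10 (95% interval -0.67 to 0.01), and 0.01, for SRP1 in wild-type (95% interval -0.21 to 0.24). The 2 subunits of the classical importer therefore had different calls, KAP95 lower in 3 of 3 strains and SRP1 in none; the difference between them was not tested.

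**Figure D2:**
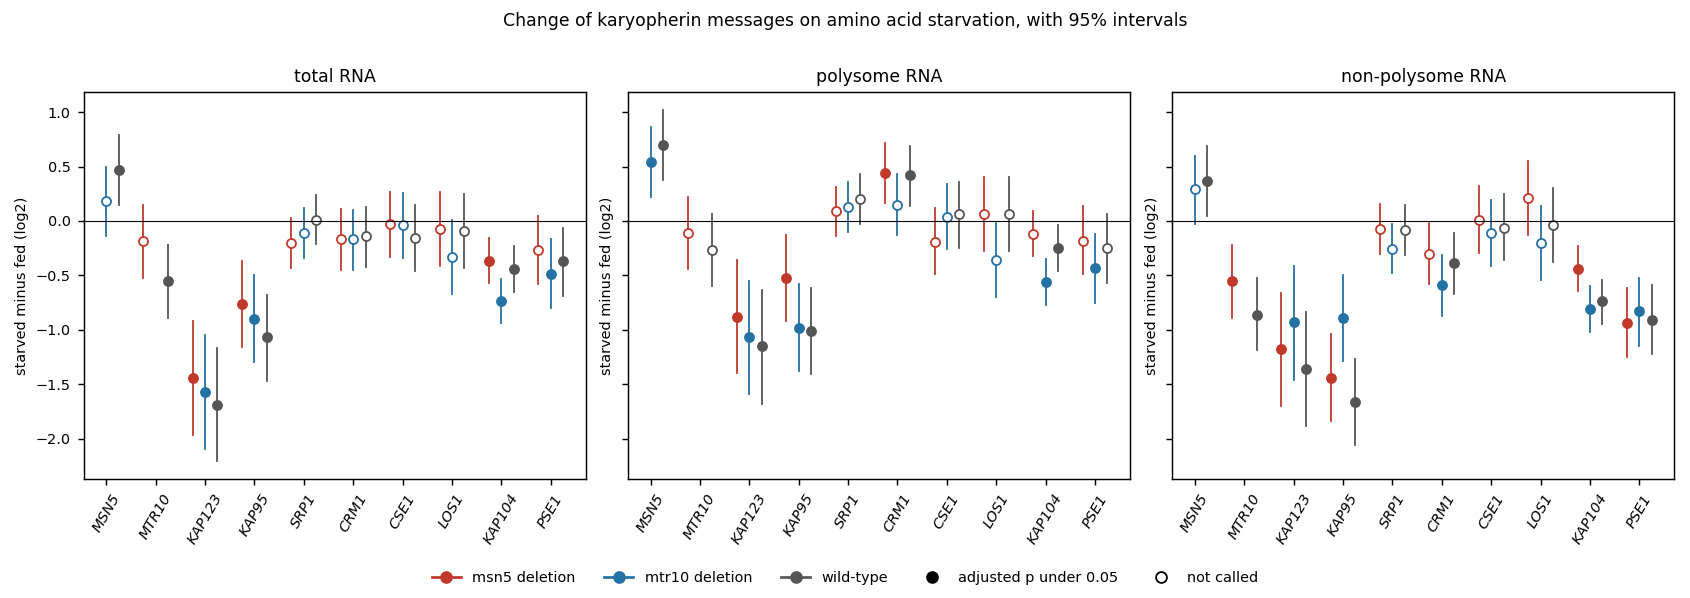
Starved minus fed difference (log2) of each karyopherin message in total, polysome and non-polysome RNA, with 95% intervals from limma's fit; colours give the strain and filled points are called at an adjusted p under 0.05. KAP123 and KAP95 lie below 0 in all 3 pools, MSN5 above 0, and CRM1 above 0 in polysome and below 0 in non-polysome RNA.

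In polysome RNA KAP123 and KAP95 were lower in starved cells of every strain, and the exportins MSN5 and CRM1 were higher in some. Of 28 comparisons 13 were called, 9 lower and 4 higher: 3 of 9 members in msn5, 5 of 9 in mtr10 and 5 of 10 in wild-type, beside 66.8%, 59.8% and 69.3% of all genes, with 32.6%, 27.2% and 33.2% called lower. KAP123 differed by -0.88 in msn5, -1.07 in mtr10 and -1.15 in wild-type (SE 0.25 each; adjusted p = 0.00413, 0.000971 and 0.000345). KAP95 differed by -0.52, -0.98 and -1.01 (SE 0.19 each; adjusted p = 0.02, 0.000167 and 7.49e-05). KAP104 fell in mtr10 (-0.56 ± 0.10, adjusted p = 5.95e-05) and in wild-type (-0.25 ± 0.10, adjusted p = 0.0312), and PSE1 fell in mtr10 (-0.43 ± 0.15, adjusted p = 0.0175). PSE1 in wild-type, called in total RNA, was not called in polysome RNA (-0.25, 95% interval -0.57 to 0.06). Nor was MTR10, with -0.11 in msn5 (95% interval -0.44 to 0.22) and -0.27 in wild-type (95% interval -0.60 to 0.06), although without the mtr10 arrays the wild-type difference was called (adjusted p = 0.0312). The KAP123 call in msn5 was lost without starved replicate 2 (-0.54, adjusted p = 0.11). That of KAP95 in msn5 was lost without fed replicate 1 (-0.45, adjusted p = 0.11) or starved replicate 1 (-0.28, adjusted p = 0.281). That of PSE1 in mtr10 was lost without fed replicate 1, fed replicate 2 or starved replicate 1 (-0.40 to -0.45, adjusted p 0.0569 to 0.0837), and that of KAP104 in wild-type without any 1 of its 4 arrays (-0.23 to -0.27, adjusted p 0.0664 to 0.121).

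MSN5 in polysome RNA read 12.57 and 12.57 in starved and 12.14 and 11.93 in fed mtr10, and 11.99 and 11.91 in starved and 11.31 and 11.19 in fed wild-type cells. The starved arrays were above the fed ones in both strains, by 0.54 ± 0.15 in mtr10 (adjusted p = 0.00451) and by 0.70 ± 0.15 in wild-type (adjusted p = 0.00035), or 1.63-fold. CRM1, the main exportin of proteins, read 11.48 and 11.33 in starved and 10.91 and 11.01 in fed msn5, and 11.36 and 11.33 in starved and 10.89 and 10.96 in fed wild-type cells. It was higher in starved polysome RNA by 0.44 ± 0.13 in msn5 (adjusted p = 0.00566) and 0.42 ± 0.13 in wild-type (adjusted p = 0.00808), with no overlap. In mtr10 it read 11.78 and 11.67 starved and 11.68 and 11.48 fed, a difference of 0.15 that was not called (95% interval -0.13 to 0.43). The MSN5 call in mtr10 was lost without fed replicate 2 (0.43, adjusted p = 0.0598), the CRM1 call in msn5 without starved replicate 1 (0.37, adjusted p = 0.0537) and in wild-type without fed replicate 1 (0.38, adjusted p = 0.0526). In median-centred MAS5 signals CRM1 differed by 0.22 in msn5 (adjusted p = 0.245) and 0.26 in wild-type (adjusted p = 0.183), and MSN5 in mtr10 by 0.08 (adjusted p = 0.53) without the msn5 arrays.

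In non-polysome RNA the importins KAP123, KAP95, KAP104, PSE1 and, in the strains that carry it, MTR10 were called lower in starved cells of every strain. Over all members 17 of 28 comparisons were called, 16 lower and 1 higher: 5 of 9 in msn5, 5 of 9 in mtr10 and 7 of 10 in wild-type, beside 58%, 49.4% and 67% of all genes, with 31.3%, 23.6% and 36% called lower. KAP95 read 8.93 and 9.60 in starved and 10.48 and 10.94 in fed msn5, and 9.32 and 9.86 in starved and 11.19 and 11.32 in fed wild-type cells. These were differences of -1.44 ± 0.19 (adjusted p = 1.87e-06) and -1.66 ± 0.19 (adjusted p = 1.45e-07), 3.17-fold in wild-type, and in mtr10 the difference was -0.89 (adjusted p = 0.000668). KAP123 differed by -1.18 in msn5, -0.93 in mtr10 and -1.36 in wild-type (adjusted p = 0.000417, 0.0043 and 6.31e-05).

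PSE1 in non-polysome RNA read 11.15 and 11.14 in starved and 12.01 and 12.16 in fed msn5, 10.79 and 11.32 in starved and 11.67 and 12.11 in fed mtr10, and 11.10 and 11.57 in starved and 12.25 and 12.24 in fed wild-type cells. It was lower on every starved array, by -0.94, -0.83 and -0.91 (SE 0.15 each; adjusted p = 2.2e-05, 0.000135 and 1.95e-05). KAP104 differed by -0.44, -0.81 and -0.74 (SE 0.10 each; adjusted p = 0.000797, 1.62e-06 and 1.17e-06). MTR10 read 10.06 and 10.18 in starved and 10.54 and 10.80 in fed msn5, and 9.99 and 10.18 in starved and 10.94 and 10.94 in fed wild-type cells. It was lower by -0.55 ± 0.16 in msn5 (adjusted p = 0.00569) and by -0.86 ± 0.16 in wild-type (adjusted p = 7.54e-05). The MTR10 call in msn5 was lost without fed replicate 2 (-0.42, adjusted p = 0.0781).

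CRM1 moved against its polysome direction: in non-polysome RNA it was lower in starved mtr10 cells (-0.59 ± 0.13, adjusted p = 0.00102) and starved wild-type cells (-0.39 ± 0.13, adjusted p = 0.0133). MSN5 was higher in starved wild-type cells (0.37 ± 0.15, adjusted p = 0.0384). SRP1, CSE1 and LOS1 gave no called difference between starved and fed cells in polysome or non-polysome RNA. The CRM1 call in wild-type was lost without fed replicate 1 (-0.38, adjusted p = 0.0548) or starved replicate 1 (-0.34, adjusted p = 0.0882), and the MSN5 call without any 1 of its 4 arrays (0.30 to 0.43, adjusted p 0.0543 to 0.177). The msn5 and mtr10 values in non-polysome RNA rest on the fed arrays that listed the deleted gene Present.

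Polysome was set against non-polysome RNA to see how far each message lay with ribosomes. In fed wild-type cells 2 of 10 members were called: SRP1 was higher in polysome RNA (0.36 ± 0.11, adjusted p = 0.00949), LOS1 was lower (-0.94 ± 0.16, adjusted p = 5.77e-05), and the other 8 differed by -0.19 to 0.27, beside 51% of all genes called and 26.5% called higher. In starved wild-type cells 7 of 10 members were called higher in polysome RNA and LOS1 lower, beside 63.1% of all genes called and 34.1% called higher. The median of the members was 0.62 in starved and 0.06 in fed wild-type cells, and that of all genes 0.04 and 0.02. The SRP1 call in fed wild-type cells was lost without non-polysome replicate 1 (0.34, adjusted p = 0.0549) or polysome replicate 1 (0.34, adjusted p = 0.0531). Without the msn5 arrays, MSN5 was called higher in polysome RNA of fed wild-type cells in median-centred MAS5 signals (0.64, adjusted p = 6.7e-05), against 0.27 in RMA values (adjusted p = 0.151), and CSE1 was called in these signals over all columns (0.36, adjusted p = 0.0335), against -0.08.

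LOS1, the tRNA exportin, was the only member lower in polysome RNA in any call. It read 10.45 and 10.90 in polysome and 11.37 and 11.65 in non-polysome RNA of starved wild-type cells (-0.84 ± 0.16, adjusted p = 0.000135), and 10.66 and 10.58 against 11.49 and 11.62 in fed ones. In starved msn5 cells it read 10.64 and 10.25 in polysome RNA and averaged 11.08 ± 0.10 (SD, n = 2) in non-polysome RNA (-0.63 ± 0.16, adjusted p = 0.00192), and 10.44 and 10.33 against 10.65 and 11.08 in fed msn5 cells (-0.48 ± 0.16, adjusted p = 0.0163). No polysome array reached a non-polysome array of its group. In mtr10 the differences, -0.36 starved (95% interval -0.70 to -0.02, adjusted p = 0.0558) and -0.20 fed (95% interval -0.54 to 0.14), were not called. The call in fed msn5 was lost without non-polysome replicate 2 (-0.26, adjusted p = 0.261) or polysome replicate 2 (-0.43, adjusted p = 0.0978), and that in starved msn5 without polysome replicate 2 (-0.43, adjusted p = 0.0536).

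CRM1 lay at the other end. In starved mtr10 cells it read 11.78 and 11.67 in polysome and 9.79 and 10.20 in non-polysome RNA, a 3.32-fold difference (1.73 ± 0.13, adjusted p = 4.57e-10). The difference was 1.24 in starved msn5 (adjusted p = 5.47e-08) and 0.92 in starved wild-type cells (adjusted p = 4.14e-06). Among fed cells it was 0.99 in mtr10 (adjusted p = 1.61e-06), 0.49 in msn5 (adjusted p = 0.00348) and 0.11 in wild-type (95% interval -0.17 to 0.39). KAP95 was higher in polysome RNA by 1.30 in starved msn5 (adjusted p = 3.97e-06), 1.24 in starved mtr10 (adjusted p = 6.76e-06) and 0.74 in starved wild-type cells (adjusted p = 0.00199), and by 1.33 in fed mtr10 (adjusted p = 4.31e-06). SRP1 was called higher in all 6 strain and condition pairs, by 0.36 to 1.22. Without non-polysome replicate 1, KAP95 in starved wild-type cells was at 0.47 (adjusted p = 0.0705) and CRM1 in fed msn5 at 0.31 (adjusted p = 0.0988).

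Over the mutants 26 of 36 comparisons were called, 24 of them higher in polysome RNA. In msn5 these were 7 of 9 members in starved and 4 of 9 in fed cells, beside 67.6% and 54.6% of all genes, with 36% and 28.3% higher. In mtr10 they were 8 of 9 in starved and 7 of 9 in fed cells, beside 68.4% and 59.5%, with 35.5% and 31.3% higher. KAP104 and PSE1 were called higher in both starved mutants, by 0.74 and 0.91 in msn5 and by 0.86 in mtr10 for both genes. MSN5 was called higher in starved mtr10 (0.72, adjusted p = 0.000297), fed mtr10 (0.46, adjusted p = 0.0129) and starved wild-type cells (0.60, adjusted p = 0.00178). MTR10 was called in starved msn5 (0.53, adjusted p = 0.00639) and starved wild-type cells (0.53, adjusted p = 0.00653). KAP123 was called only in mtr10, by 0.91 starved and 1.05 fed, and CSE1 only in starved mtr10 (0.39, adjusted p = 0.023).

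The calls in fed msn5 and fed mtr10 use the non-polysome arrays that listed the deleted gene Present. Several of the calls between pools turned on 1 array. CSE1 in starved mtr10 was lost without non-polysome replicate 1 (0.29, adjusted p = 0.176) or polysome replicate 1 (0.33, adjusted p = 0.122). MSN5 in fed mtr10 was lost without the first replicate of either pool (0.35 and 0.36, adjusted p = 0.127 and 0.123), and PSE1 in fed mtr10 likewise (0.24 and 0.45, adjusted p = 0.251 and 0.0547). MTR10 was lost in starved msn5 without non-polysome replicate 1 (0.46, adjusted p = 0.0508), and in starved wild-type cells without non-polysome replicate 1 (0.44, adjusted p = 0.067) or polysome replicate 1 (0.39, adjusted p = 0.0939).

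**Figure D3:**
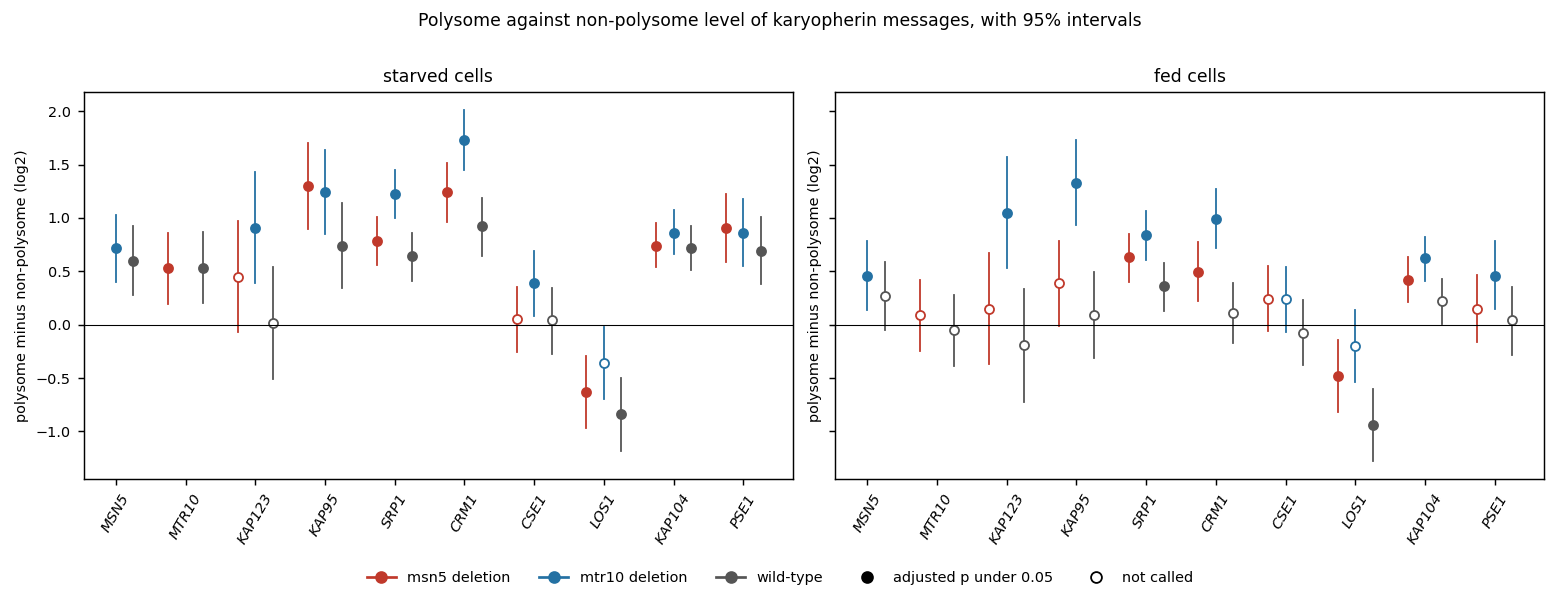
Polysome minus non-polysome level (log2) of each karyopherin message in starved and fed cells, with 95% intervals from limma's fit; colours give the strain and filled points are called at an adjusted p under 0.05. LOS1 lies below 0 in every strain and condition, and CRM1 in starved mtr10 lies highest, at 1.73.

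The change of the polysome to non-polysome ratio with starvation was tested as a difference of differences. It was called in 8 of 28 comparisons, all 8 upward: KAP95, CRM1 and PSE1 in msn5, CRM1 in mtr10, and MTR10, CRM1, KAP104 and PSE1 in wild-type. All genes were called at 43.8% in msn5, 32.4% in mtr10 and 39.7% in wild-type, and called upward at 25.2%, 17.4% and 23.3%. CRM1 was called in every strain, by 0.74 ± 0.19 in msn5 (adjusted p = 0.00339), 0.74 ± 0.19 in mtr10 (adjusted p = 0.00537) and 0.81 ± 0.19 in wild-type (adjusted p = 0.00214). On starvation its polysome level differed by 0.44 in msn5, 0.15 in mtr10 and 0.42 in wild-type and its non-polysome level by -0.30, -0.59 and -0.39, while its total level differed by -0.17, -0.17 and -0.14. PSE1 changed by 0.76 ± 0.21 in msn5 (adjusted p = 0.00732) and 0.66 ± 0.21 in wild-type (adjusted p = 0.0192), and KAP95 by 0.92 ± 0.27 in msn5 (adjusted p = 0.00974). KAP104 changed by 0.50 ± 0.14 (adjusted p = 0.00876) and MTR10 by 0.59 ± 0.23 (adjusted p = 0.045) in wild-type. MTR10 in msn5 was at 0.44 (adjusted p = 0.12), and was called without the mtr10 arrays (adjusted p = 0.0268; 0.63 in median-centred MAS5 signals, adjusted p = 0.00492). KAP123, which had the largest fall in total RNA, had ratio changes of 0.30 in msn5 (95% interval -0.44 to 1.04), -0.14 in mtr10 (-0.88 to 0.60) and 0.21 in wild-type (-0.53 to 0.95).

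These ratio changes combine 8 arrays each, and many depended on 1 of them. Those in msn5 and mtr10 include the fed non-polysome arrays that listed the deleted gene Present. The MTR10 call was lost in 6 of 8 cases (0.45 to 0.62, adjusted p 0.0725 to 0.181), and was kept only without the second starved replicate of either pool. KAP95 in msn5 was lost without fed non-polysome replicate 2 (0.69, adjusted p = 0.0738), starved non-polysome replicate 1 (0.58, adjusted p = 0.0912) or starved polysome replicate 2 (0.67, adjusted p = 0.0644). CRM1 in mtr10 was lost without starved non-polysome replicate 1 (0.53, adjusted p = 0.0503). In wild-type, KAP104 was lost without starved non-polysome replicate 1 (0.40, adjusted p = 0.054), and PSE1 without that array (0.42, adjusted p = 0.144) or fed polysome replicate 1 (0.64, adjusted p = 0.0513). In median-centred MAS5 signals PSE1 was not called in msn5 (0.36, adjusted p = 0.15) or wild-type (0.16, adjusted p = 0.53), nor KAP104 in wild-type (0.14, adjusted p = 0.457).

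Each mutant was set against wild-type to ask whether the messages of the remaining carriers differed where one carrier was lost. In msn5 no member was called against wild-type in total RNA of fed or starved cells (0 of 18 comparisons by limma, 1 at an unadjusted p under 0.05), beside 20.2% of all genes in starved and 11.9% in fed cells. The largest difference was KAP95 in fed cells, 11.05 and 11.22 in msn5 against 11.53 and 11.57 in wild-type (-0.41, 95% interval -0.81 to -0.01, adjusted p = 0.187). MTR10 differed by 0.11 in starved (95% interval -0.23 to 0.44) and -0.26 in fed cells (-0.60 to 0.07). A fit of the 2 compared groups alone called 4 members in fed total RNA: KAP95, KAP123 (-0.32, adjusted p = 0.0452), MTR10 (adjusted p = 0.0347) and LOS1 (-0.24, adjusted p = 0.0362). In polysome RNA none of the 9 was called in msn5, beside 16.8% of all genes in starved and 9.16% in fed cells. In non-polysome RNA only LOS1 was called, in fed cells, at 10.65 and 11.08 in msn5 against 11.49 and 11.62 in wild-type (-0.69 ± 0.16, adjusted p = 0.00537), beside 16.4% of all genes in fed and 24.4% in starved cells. Those fed msn5 arrays are the ones that listed MSN5 Present. The LOS1 call was lost without msn5 replicate 1 (-0.47, adjusted p = 0.148), without wild-type replicate 2 (-0.62, adjusted p = 0.061), in median-centred MAS5 signals (-0.39, adjusted p = 0.145) and in a fit of the compared groups alone (adjusted p = 0.0703).

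In mtr10 the message of MSN5 was higher than in wild-type in 5 of 6 comparisons. In total RNA it read 12.07 and 12.03 in starved mtr10 against 11.93 and 11.53 in starved wild-type cells (0.32, 95% interval 0.00 to 0.64, adjusted p = 0.0816, or 0.0236 without the msn5 arrays). In fed cells it read 11.83 and 11.91 in mtr10 against 11.23 and 11.28 in wild-type (0.61 ± 0.15, adjusted p = 0.0031). In polysome RNA the differences were 0.62 starved (adjusted p = 0.00188) and 0.78 fed (adjusted p = 0.000304), and in non-polysome RNA 0.50 starved (adjusted p = 0.00861) and 0.59 fed (adjusted p = 0.00331). The mtr10 arrays lay above the wild-type arrays in all 6 comparisons, and the share of all genes without overlap was not counted there. The call in starved non-polysome RNA was lost without mtr10 replicate 2 (0.47, adjusted p = 0.0529) or wild-type replicate 2 (0.44, adjusted p = 0.066). In median-centred MAS5 signals over all arrays none of the 5 was called, with 0.70 in fed total RNA (adjusted p = 0.364); without the arrays of msn5, which lacks the gene, all 5 were called and so was starved total RNA (0.39, adjusted p = 0.0197).

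SRP1, importin alpha, was lower in mtr10. In starved total RNA it read 11.78 and 11.80 in mtr10 against 12.31 and 12.25 in wild-type (-0.49 ± 0.11, adjusted p = 0.000722), and in fed total RNA 11.92 and 11.87 against 12.26 and 12.27 (-0.37 ± 0.11, adjusted p = 0.0106). In non-polysome RNA it read 11.17 and 11.08 in starved mtr10 against 11.88 and 12.01 in wild-type (-0.82 ± 0.11, adjusted p = 2.15e-06), and 11.48 and 11.28 against 12.01 and 12.05 in fed cells (-0.65 ± 0.11, adjusted p = 5.61e-05). The groups did not overlap in these 4 comparisons, for which the share of all genes without overlap was not counted. In polysome RNA the differences were -0.23 starved (95% interval -0.46 to -0.01, adjusted p = 0.0778) and -0.17 fed (-0.40 to 0.06). The call in fed total RNA was lost without mtr10 replicate 2 (-0.34, adjusted p = 0.0663), wild-type replicate 1 or 2 (-0.37 each, adjusted p = 0.0531 and 0.0514), and in median-centred MAS5 signals (-0.35, adjusted p = 0.113).

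Other members differed by pool in mtr10. LOS1 was lower in non-polysome RNA of starved (10.56 and 10.86 in mtr10 against 11.37 and 11.65 in wild-type, -0.80 ± 0.16, adjusted p = 0.000312) and fed cells (-0.64 ± 0.16, adjusted p = 0.00293), and in starved total RNA (-0.41 ± 0.16, adjusted p = 0.0399). CRM1 was higher in polysome RNA of starved (0.38 ± 0.13, adjusted p = 0.0198) and fed cells (11.68 and 11.48 in mtr10 against 10.89 and 10.96 in wild-type, 0.65 ± 0.13, adjusted p = 0.00046), and lower in starved non-polysome RNA (-0.43 ± 0.13, adjusted p = 0.00954). KAP95 read 10.03 and 10.41 in fed mtr10 non-polysome RNA against 11.19 and 11.32 in wild-type (-1.04 ± 0.19, adjusted p = 0.000143). KAP123 read 11.25 and 11.31 there against 12.06 and 12.03 (-0.76 ± 0.25, adjusted p = 0.0158). KAP104 was higher in fed polysome RNA by 0.27 ± 0.10 (adjusted p = 0.0333). PSE1 and CSE1 were called in no comparison of either mutant with wild-type.

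Over both conditions, mtr10 had 4 of 18 calls in total RNA, 3 lower (SRP1 in both conditions and LOS1) and 1 higher (MSN5), beside 54.2% of all genes in starved and 39.5% in fed cells. Polysome RNA of the mutants had 5 calls of 36, all higher and all in mtr10, beside 52.6% of all genes in starved and 39.7% in fed mtr10. Non-polysome RNA had 10 calls of 36, 8 lower, 9 of them in mtr10, beside 52.4% in starved and 48.8% in fed mtr10. LOS1 in starved total RNA was lost without mtr10 replicate 1 (-0.48, adjusted p = 0.0609), mtr10 replicate 2 (-0.34, adjusted p = 0.193) or wild-type replicate 2 (-0.27, adjusted p = 0.274). CRM1 in starved polysome RNA was lost without mtr10 replicate 1 (0.32, adjusted p = 0.126) or either wild-type array (0.40 and 0.37, adjusted p = 0.0601 and 0.0798), and in starved non-polysome RNA without mtr10 replicate 1 (-0.22, adjusted p = 0.227) or wild-type replicate 2 (-0.38, adjusted p = 0.0701). KAP123 in fed non-polysome RNA was lost without mtr10 replicate 1 (-0.73, adjusted p = 0.0716) or either wild-type array (-0.75 and -0.78, adjusted p = 0.0681 and 0.0572), and KAP104 in fed polysome RNA without any 1 of its 4 arrays (0.23 to 0.31, adjusted p 0.0561 to 0.183). In median-centred MAS5 signals LOS1 in fed non-polysome RNA was at -0.34 (adjusted p = 0.11) and in starved total RNA at -0.42 (adjusted p = 0.12), and CRM1 was at 0.39 in starved polysome (adjusted p = 0.0744) and -0.24 in starved non-polysome RNA (adjusted p = 0.259).

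**Figure D4:**
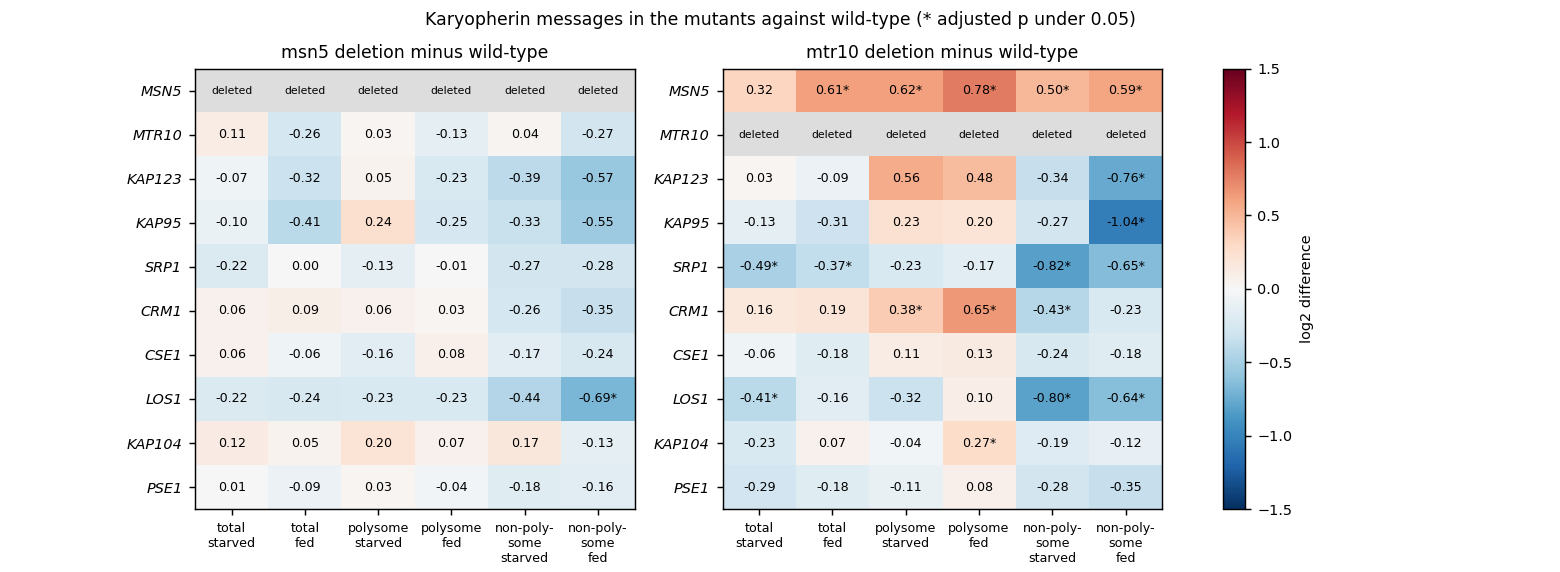
Difference (log2) of each karyopherin message between msn5 or mtr10 and wild-type, by RNA pool and condition; red is higher and blue lower in the mutant, and a star marks an adjusted p under 0.05. The msn5 panel has 1 star, on LOS1 in fed non-polysome RNA, and in the mtr10 panel MSN5 is higher with 5 stars and SRP1 lower with 4.

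The polysome to non-polysome ratio of mutants was set against that of wild-type after the other comparisons had been seen. In msn5 no member was called (by limma 0 of 9 in starved and 0 of 9 in fed cells), beside 0.0749% and 0.0562% of all genes. In mtr10, 1 of 9 members was called in starved and 3 of 9 in fed cells, all higher, beside 1.82% and 8.3% of all genes, or 0.787% and 4.23% called higher. CRM1 had a higher ratio in mtr10 than in wild-type by 0.81 ± 0.19 in starved (adjusted p = 0.0308) and 0.88 ± 0.19 in fed cells (adjusted p = 0.00703). KAP95 and KAP123 had higher ratios in fed mtr10, by 1.24 ± 0.27 (adjusted p = 0.00869) and 1.24 ± 0.36 (adjusted p = 0.0337). In starved mtr10 their differences were 0.50 (95% interval -0.06 to 1.06) and 0.90 (95% interval 0.16 to 1.63, adjusted p = 0.185). SRP1 was at 0.59 in starved (adjusted p = 0.0515) and 0.48 in fed mtr10 (adjusted p = 0.057), and LOS1 at 0.73 in fed mtr10 (adjusted p = 0.0522).

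The 3 calls in fed mtr10 need the non-polysome arrays that listed MTR10 Present. The KAP123 call was lost in 7 of 8 cases of leaving out an array (1.05 to 1.27, adjusted p 0.0518 to 0.161), kept only without mtr10 polysome replicate 2, and KAP95 was lost without mtr10 non-polysome replicate 1 (1.05, adjusted p = 0.0556). CRM1 in starved cells was lost in 5 of 8 cases (0.61 to 0.83, adjusted p 0.0792 to 0.141): without the first mtr10 replicate of either pool, without the second wild-type non-polysome replicate, or without either wild-type polysome replicate. In median-centred MAS5 signals KAP123 (1.06, adjusted p = 0.0607) and CRM1 (0.59 fed and 0.63 starved, adjusted p = 0.157 and 0.236) were not called.

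No difference between a mutant and wild-type was called in the total RNA response of a member to starvation. This held in all 18 tests (0 called by limma, 1 at an unadjusted p under 0.05), beside 0.693% of all genes for msn5 and 14.3% for mtr10. The intervals were wide, so differences of some size remain possible. The smallest p was that of KAP104 in mtr10, whose starvation difference was 0.29 further below 0 than in wild-type (-0.29, 95% interval -0.59 to 0.00, adjusted p = 0.172). For KAP123 the difference in response was 0.25 in msn5 (95% interval -0.49 to 0.99) and 0.12 in mtr10 (-0.62 to 0.86). For MTR10 in msn5 it was 0.37 (-0.10 to 0.84), and for MSN5 in mtr10 -0.29 (-0.74 to 0.16).

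Of the 5 other karyopherin genes measured (KAP114, KAP120, KAP122, NMD5 and SXM1), SXM1, an importer of ribosomal and other proteins, was lower in starved total RNA of wild-type cells (10.92 starved and 11.66 fed, -0.74 ± 0.15, adjusted p = 0.000236), with differences of -0.62 in msn5 and -0.58 in mtr10, both called. KAP122 was called lower in starved mtr10 (-0.68, adjusted p = 0.00842), and no other gene of the 5 was called in total RNA on starvation. Of all genes, 61% were called there in msn5, 48.7% in mtr10 and 64.2% in wild-type. The median of the 5 in wild-type was -0.25. Against wild-type, starved mtr10 total RNA had lower NMD5 (9.81 and 10.40, -0.59 ± 0.15, adjusted p = 0.00171), KAP120 (-0.53) and KAP122 (-0.72), and higher SXM1 (0.43). In fed cells only KAP120 was called (-0.37, adjusted p = 0.0435). Of all genes, 54.2% were called between mtr10 and wild-type in starved and 39.5% in fed total RNA. NMD5 and KAP114 had ratio changes on starvation of 0.91 and 0.72 in wild-type, both called. These were 2 of the 5, both upward, beside 39.7% of all genes called and 23.3% called upward. NMD5 was also called in msn5 (0.95) and KAP114 in mtr10 (0.75). KAP120 in fed mtr10 lost its call without any 1 of its 4 arrays (-0.32 to -0.41, adjusted p 0.0903 to 0.188). KAP120, KAP122 and SXM1 lost their starved mtr10 calls without mtr10 replicate 2 (adjusted p = 0.0625, 0.118 and 0.0787), SXM1 also without either of the first replicates (adjusted p = 0.168 and 0.0685), and KAP114 in wild-type without any of 4 of its 8 arrays (0.60 to 0.73, adjusted p 0.0509 to 0.0967). In uncentred MAS5 signals SXM1 on starvation in wild-type was at -0.54 (adjusted p = 0.055), and in starved mtr10 against wild-type SXM1 was at 0.28 (adjusted p = 0.275) and KAP122 at -0.72 (adjusted p = 0.0521).

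Genes of the Ran cycle, on which all these carriers depend, were mostly lower in starved total RNA: in wild-type 7 of 9 were called lower, beside 32.8% of all genes, and 1 higher, with a median of -0.59. SRM1, the nuclear exchange factor that loads Ran with GTP, had a mean of 10.52 in starved and 12.04 in fed wild-type cells (-1.52 ± 0.11, adjusted p = 2.09e-10). MOG1, which binds Ran, differed by -1.10 ± 0.11 (adjusted p = 2.02e-08), YRB1, a Ran-binding protein of the cytoplasm, by -0.96 ± 0.09 (adjusted p = 4.58e-09), and YRB2, its nuclear relative, by -0.68 ± 0.09 (adjusted p = 1.15e-06). In msn5 7 of 9 and in mtr10 4 of 9 were called lower, beside 32.2% and 23.9% of all genes. The starvation response of 4 of the 9 differed between mtr10 and wild-type, beside 14.3% of all genes, with MOG1 at 1.25, SRM1 at 0.68, YRB1 at 0.62 and YRB2 at 0.49, all nearer to 0 or above it in mtr10. In starved total RNA 5 of 9 were called higher and 1 lower in mtr10 than in wild-type, beside 54.2% of all genes called. MOG1, SRM1, YRB1 and YRB2 were higher there by 0.86, 0.71, 0.85 and 0.54. Starved msn5 had 3 of 9 called higher than wild-type, MOG1 (0.64), SRM1 (0.52) and YRB2 (0.35), and RNA1 called lower (-0.24), beside 20.2% of all genes called. YRB1 differed by 0.01. The starvation responses of MOG1, SRM1, YRB2 and YRB1 in msn5 differed from those in wild-type by 0.50, 0.42, 0.18 and 0.05, none called (adjusted p 0.161 to 0.965). The calls of MOG1, SRM1 and YRB2 in msn5 were lost in both MAS5 scalings (0.38 to 0.54). Those of SRM1 and YRB2 were also lost in a fit of the compared groups alone (adjusted p = 0.0857 and 0.166). RNA1 was lost in that fit too (adjusted p = 0.196), and was at 0.03 in centred and 0.01 in uncentred MAS5 signals. SRM1 was further lost without wild-type replicate 1 (0.37, adjusted p = 0.07), and YRB2 without msn5 replicate 2 (0.21, adjusted p = 0.225) or wild-type replicate 2 (0.29, adjusted p = 0.0862). In the ratio of polysome to non-polysome RNA, 5 of 9 were called lower on starvation in wild-type, beside 16.4% of all genes, and none higher. RNA1, the GTPase-activating protein of Ran, changed by -1.28 ± 0.12 in wild-type (adjusted p = 7.42e-07), -1.30 in msn5 and -0.87 in mtr10. SRM1 changed by -1.02, GSP2, a second Ran gene, by -1.13 and MOG1 by -0.49 in wild-type. MOG1's ratio call was lost without starved polysome replicate 1 (-0.44, adjusted p = 0.0626) or starved non-polysome replicate 1 (-0.47, adjusted p = 0.0502), and in uncentred MAS5 signals (-0.31, adjusted p = 0.201).

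Of 13 measured genes of tRNA splicing and export, 9 were called lower and none higher in starved wild-type total RNA, with a median of -0.60, and 8 of 13 were lower in each mutant. Of all genes 32.2% were called lower in msn5, 23.9% in mtr10 and 32.8% in wild-type. SEN34, part of the endonuclease that cuts introns from tRNA, had a mean of 8.73 in starved and 10.45 in fed wild-type cells (-1.72 ± 0.14, adjusted p = 6.46e-10). TRL1, the tRNA ligase, differed by -1.06, ARC1, a cofactor of aminoacyl-tRNA synthetases, by -0.64 and MEX67, an RNA exporter, by -0.56, all called. In uncentred MAS5 signals MEX67 was at -0.25 and not called (adjusted p = 0.205). LOS1, which acts in the same pathway, was not called (-0.09).

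Genes for cargo of the deleted carriers were read as well. Of 7 genes for Msn5 cargo, 3 were called higher and none lower in starved wild-type total RNA, beside 31.4% of all genes called higher: MIG1, a repressor of glucose-repressed genes, by 1.11 ± 0.12 (adjusted p = 6.68e-08), MSN2, a stress activator, by 0.42 ± 0.13 and CRZ1, a calcineurin-dependent activator, by 0.40 ± 0.13. PHO4, the phosphate-response activator, differed by 0.90 ± 0.43 and was not called. In msn5, FAR1, an inhibitor of the cell cycle in mating, was lower than in wild-type in starved (10.75 and 12.19, -1.44 ± 0.14, adjusted p = 1.19e-07) and fed total RNA (11.12 and 12.16, -1.04 ± 0.14, adjusted p = 1.93e-05). MSN2 was also lower in msn5, by -0.63 starved and -0.42 fed, and no other gene of the 7 was called there. Of all genes, 20.2% were called between msn5 and wild-type in starved and 11.9% in fed total RNA. FAR1 was also lower in mtr10 than in wild-type, by -0.94 in starved and -0.45 in fed total RNA, and MSN2 by -0.38 in fed. Of the 7, 1 was called lower and 2 higher in starved mtr10, and 2 lower and 1 higher in fed mtr10. Of all genes, 54.2% and 39.5% were called there. The FAR1 and MSN2 calls in fed mtr10 were each lost without wild-type replicate 1 or mtr10 replicate 1. Both MSN2 calls in msn5 were lost in median-centred (-0.34 starved and -0.32 fed, adjusted p = 0.144 and 0.187) and uncentred MAS5 signals (-0.35 each, adjusted p = 0.141 and 0.165). The MSN2 call in fed msn5 was lost without wild-type replicate 1 (-0.31, adjusted p = 0.35) or either msn5 array (-0.36 and -0.48, adjusted p = 0.25 and 0.0805), and its call on starvation in wild-type without fed replicate 2 (0.31, adjusted p = 0.0986) or starved replicate 1 (0.36, adjusted p = 0.063). On starvation in wild-type MSN2 was at 0.28 (adjusted p = 0.152) and CRZ1 at 0.41 (adjusted p = 0.109) in median-centred MAS5 signals.

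Among 3 genes for Mtr10 cargo, NPL3, the RNA-binding protein that Mtr10 imports, was higher in mtr10 than in wild-type in 5 of 6 comparisons. In these 6 comparisons 39.5% to 54.2% of all genes were called, in either direction. Its means in total RNA were 14.16 in starved mtr10 and 12.88 in starved wild-type cells (1.29 ± 0.20, adjusted p = 1.83e-05), and 14.30 and 13.56 in fed cells (0.74 ± 0.20, adjusted p = 0.00611). In polysome RNA NPL3 was higher by 1.83 in starved and 0.86 in fed mtr10, and in non-polysome RNA by 1.52 starved, with 0.36 fed not called (adjusted p = 0.145). HRB1 and GBP2, related RNA-binding proteins that Mtr10 also imports, were not called between mtr10 and wild-type in total RNA, with -0.16 and 0.08 in starved and -0.11 and -0.02 in fed cells. On starvation in wild-type, NPL3 fell (-0.68 ± 0.20, adjusted p = 0.00597), HRB1 rose (0.73 ± 0.14, adjusted p = 0.000127) and GBP2 differed by -0.04. Of all genes, 64.2% were called on starvation there. The NPL3 difference in fed total RNA was not called in median-centred MAS5 signals (0.77, adjusted p = 0.0502).

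As a description of pattern, the 3 genes whose group means correlated best with each member were listed, with Pearson's r over the 18 groups, or the 12 that carry MSN5 or MTR10; groups share strains, pools and arrays. KAP95 was most like RET1 (0.993), a subunit of RNA polymerase III, YLR419W (0.976) and SAP185 (0.967). KAP123 was most like RRP5 (0.983), LSG1 (0.973) and DRS1 (0.969), which act in ribosome assembly. MTR10 was most like SAP185 (0.976), KAP95 (0.971) and GPI8 (0.967), PSE1 most like SAP185 (0.970), PFK1 (0.964) and RET1 (0.961), and KAP104 most like TYW1 (0.968), ELP2 (0.949) and SAP185 (0.947). Among members the closest pairs were MTR10 with KAP95, KAP95 with PSE1 (0.951) and KAP104 with PSE1 (0.946). MSN5 stood with PAM1 (0.976), DIN7 (0.975) and VAM6 (0.973), and against LOS1 (-0.756 over 12 groups). SRP1 was most like VAC8 (0.961), RSP5 (0.954) and ATP2 (0.945), CRM1 most like ITC1 (0.947), MID2 (0.936) and SPT16 (0.933), and LOS1 most like ICE2 (0.917), YJL193W (0.899) and UBC11 (0.875). CSE1, with the smallest span, had no gene above 0.835, which was reached by YDR261W-B, with YDR261C-D at 0.834 and COX4 at 0.792.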

How the data were processed

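The 36 arrays were grouped by strain, condition and kind of RNA as the labels give them. The authors deposited log2 RMA values for 5684 probe sets, made with RMA and affy per the submitters' processing notes; the sources used here give no versions. They also deposited the MAS5 intensity of 10928 probe sets, on a linear scale, whose array means were 552.9 to 607, each with its detection p-value. A probe was taken as Present at a deposited p-value under 0.05. Of 36 MAS5 columns, 2 (fed and starved wild-type total RNA, array a) matched arrays of the other condition and were left out. Probe sets were named from the platform annotation: 5379 had 1 gene, 210 none and 95 were controls. Where a gene had several probe sets, as 39 did, that with the highest mean stood for it, which left 5338 genes, and the filter on Present calls removed none. Array medians were 10.65 to 10.73. SRP1 was matched by its Entrez number, since the name is also a synonym of another gene.

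One mean per group was fitted over all arrays with limma 3.58.1 in R 4.3.3, and 36 comparisons were tested two-sided, with Benjamini-Hochberg adjustment over 5338 genes, on 18 degrees of freedom from residuals and 3.92 from the prior. The last 4, the differences of ratio between mutant and wild-type, were added after the data had been examined. Alternatives were MAS5 signals (floored at 1, median-centred or not), re-centred arrays, a variance trend, the compared groups alone, the replicate number as a block, no filter, and leaving out each array. Fits without the strain that lacks MSN5 or MTR10 were added after seeing the data. The members and gene lists were chosen with earlier results of these data known. Named were the 10 members in every comparison, called genes among 5 other karyopherins, up to 4 genes of smallest p in each further list, and the 3 genes most alike to each member. Same-numbered arrays deviated together between all pools of wild-type and of starved msn5 but not throughout. The fit was tested on simulated data. Sequences of promoters and proteins were not analysed here.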

Additional observations from a re-analysis of the deposited data

Results flagged for a closer look

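In 12 cases the effect of one contrast differed between groups by a test of the difference itself. For 8 of these, starvation changed the polysome to non-polysome ratio: by 0.92 for KAP95, 0.74 for CRM1 and 0.76 for PSE1 in msn5, by 0.74 for CRM1 in mtr10, and by 0.59 for MTR10, 0.81 for CRM1, 0.50 for KAP104 and 0.66 for PSE1 in wild-type. For the other 4, the ratio differed between mtr10 and wild-type: by 0.81 for CRM1 in starved cells, and by 0.88 for CRM1, 1.24 for KAP95 and 1.24 for KAP123 in fed cells, the last 3 resting on the fed mtr10 non-polysome arrays on which MTR10 was listed Present. The ratio changes on starvation in msn5 and mtr10 likewise use the fed non-polysome arrays of those strains, on which the deleted gene was listed Present.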

How the results depend on the processing

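Of 110 called results on members, all but 1 kept their call with re-centred arrays (CSE1 in starved mtr10, polysome against non-polysome, 0.32, adjusted p = 0.0509, was lost), and all but 1 with a variance trend (the MTR10 ratio change, adjusted p = 0.0518, was lost). The fit without the filter repeated the main fit, since the filter removed no gene, and so is no further check. Of the 110, 102 kept their call in fits of the compared groups alone, 80 in median-centred and 82 in uncentred MAS5 signals, and none changed sign. CSE1 in fed wild-type cells, not called in RMA values (-0.08), was higher in polysome RNA in median-centred MAS5 signals (0.36, adjusted p = 0.0335). RNA1, called at -0.24 between msn5 and wild-type in starved total RNA, was at 0.03 in centred and 0.01 in uncentred MAS5 signals, not called. Without the strain that lacks the gene, 18 of 18 MSN5 and MTR10 calls were kept in RMA and 16 of 18 in centred MAS5 values, and 4 were gained in each. Gained in both were MSN5 between mtr10 and wild-type in starved total RNA (0.32 in RMA, adjusted p = 0.0236), the MTR10 ratio change in msn5 (0.44, adjusted p = 0.0268) and MTR10 in starved wild-type polysome RNA (-0.27, adjusted p = 0.0312). Gained in RMA was also MSN5 in starved mtr10 non-polysome RNA (0.29, adjusted p = 0.0437), and in MAS5 MSN5 between pools in fed wild-type cells (0.64, adjusted p = 6.7e-05). Of 66 called results on named genes of the further lists, 35 lost their call in at least 1 alternative or left-out array. Uncentred MAS5 signals moved the median ratio change of all genes to 0.33 in msn5, 0.22 in mtr10 and 0.33 in wild-type, against 0.09, 0.05 and 0.08.

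Counts of members moved as follows. Ratio changes on starvation, 8 in RMA values, were 5 in centred MAS5 signals. Ratio differences between mutant and wild-type, 4 in RMA values, were 7 with a variance trend, 1 in centred and 2 in uncentred MAS5 signals, and 2 of the 18 tests left without the fed mutant non-polysome arrays, where RMA values over all arrays gave 1. The msn5 calls in total RNA were 4 in fits of the compared groups alone and 0 otherwise. The mtr10 calls in total RNA, 4, were 2 in both MAS5 scalings, calls of mutants in non-polysome RNA, 10, were 6 in both, and calls of mutants in polysome RNA, 5, were 1 in centred and 2 in uncentred signals. The MAS5 fits had 1 array for each wild-type total group, while every polysome and non-polysome group kept 2. Why the counts differed in MAS5 signals was not tested. Leaving out 1 array gave 12 to 12 calls of a deleted gene, 11 to 13 on starvation in total, 11 to 14 in polysome and 15 to 19 in non-polysome RNA, 0 to 0 for msn5 and 3 to 5 for mtr10 in total RNA, 4 to 6 in polysome and 8 to 14 in non-polysome RNA of the mutants, 8 to 10 between pools in wild-type and 24 to 27 in the mutants, 5 to 11 ratio changes, 3 to 7 ratio differences and 0 to 0 differences of response.

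With the replicate number as a block, all 110 calls were kept and 2 were gained, KAP95 between msn5 and wild-type in fed non-polysome RNA (-0.55, adjusted p = 0.0291) and in the wild-type ratio change (0.65, adjusted p = 0.0345). The deviations of same-numbered arrays correlated at -0.381 to 0.631 between conditions, -0.661 to 0.643 between pools and -0.584 to 0.407 between strains, over 0.1 in 7 of 9, 13 of 18 and 9 of 18 pairs. In wild-type all 6 pairs of pools lay at 0.373 to 0.619. Pools of starved msn5 cells lay at 0.421 to 0.527, and polysome against total RNA of mtr10 at 0.643 fed and 0.408 starved. Other mtr10 pairs of pools lay at -0.203 to 0.131. Fed msn5 polysome RNA lay at -0.661 against total and -0.499 against non-polysome RNA, while those 2 pools lay at 0.55. MAS5 columns a and b of that polysome group best matched replicates 2 and 1, and an exchange of its numbers was not tested. The numbers as given therefore did not pair arrays throughout, though they did between pools of wild-type and of starved msn5. A block within each strain kept all but 1 (the MTR10 ratio change, adjusted p = 0.0523) and gained 10, with LOS1 in 4 of them and KAP95 in 3.

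Over all genes, calls between msn5 and wild-type were 637 in fed and 1078 in starved total RNA, against 342 and 433 in centred and 311 and 394 in uncentred MAS5 signals and 1530 and 319 with the compared groups alone. In starved polysome RNA they were 897, against 512, 524 and 55 in that order. With the compared groups alone they were 813 in fed polysome RNA (489 over all arrays), 373 in fed (876) and 86 in starved non-polysome RNA (1303), while msn5 had 1805 calls on starvation in non-polysome RNA (3094), 2062 between pools when starved (3609) and 895 ratio changes (2337). Differences of response fell to 10 (37) for msn5 and 264 (763) for mtr10 in centred signals, 10 and 260 in uncentred ones, and 7 for msn5 with the compared groups alone, with 90 under the block within strains. Ratio differences for msn5 were 8 (3) in centred, 7 in uncentred signals and 6 under that block in fed cells, and 2 (4) in uncentred signals and 0 with the compared groups alone in starved ones. For mtr10 they were 246 (443) in centred and 245 in uncentred signals in fed cells, and 25 (97) in both, 0 with the compared groups alone and 173 under the block in starved cells.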
